A study of Mus musculus with 12 samples.

Results

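The genes described here build and run transport along the primary cilium, the single antenna that most cells carry. They were chosen by name: every protein-coding gene of the GENCODE M21 mouse annotation whose symbol begins with Ift or Bbs and a number, Tctn1 to Tctn3 where annotated as protein-coding, and 11 further genes of cilium transport (Arl13b, Rpgrip1l, Mks1, Togaram1, Kif3a, Kif3b, Kif17, Dync2h1, Cep290, Ttc26 and Tulp3). The rule found 35 genes of 18299 protein-coding genes in the table, made of 150 transcripts. All 35 passed the filter on low counts, so none was lost to it, and the lowest count of any member in any library was 54 (Kif17).

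Islets of wild-type male mice, 10 to 12 weeks old, were cultured in lots of about 120 and sequenced as messenger RNA in 12 libraries, 3 for each of 4 conditions. The conditions were palmitate with C3a, palmitate alone, vehicle with C3a, and vehicle alone. Palmitate is a saturated fatty acid used to stress islets in culture, C3a is a signalling fragment of complement protein C3, and the series title names cell death of islets outside the body as its subject. The labels give neither the doses, the hours of culture nor whether libraries came from separate animals, so p-values measure only the spread between these libraries, which may be technical. Library 1 of each group was sequenced in batch 1 (22216420 to 26110989 counts) and libraries 2 and 3 in batch 2 (35876350 to 50264695 counts), and batch was a term of every test.

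Inside a cilium, 2 protein complexes named IFT-B and IFT-A travel as trains along the microtubule core: kinesin-2 pulls them, with IFT-B needed for the outward trip, and dynein-2 brings them back with IFT-A. The BBSome, a coat-like complex that rides on the trains, carries membrane receptors out of the cilium, and the transition zone at the cilium's base decides what may pass. Beta, alpha and delta cells of the islet each carry a primary cilium, and loss of Ift88 or of BBSome subunits in mice disturbs insulin secretion.

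Many cilium genes are switched on by transcription factors of the RFX family, whose binding site, the X-box, is a pair of inverted arms. The promoter stretches below show a member that rose with palmitate (Ift57), one that did not pass the test (Bbs7) and members that fell, with a single arm (Ift140) and with none (Bbs2). Each gives the 130 bases that precede the start in RefSeq's promoter table (GRCm38.p6), 5′ to 3′ on the gene's own strand. Capitals mark each match to the single arm GTTGCC (on the other strand, GGCAAC) or to the paired X-box, which was searched on both strands as GTNNCC, then any 3 bases, then GNAAC. A match to the paired X-box can contain one to the single arm. Only this spacing of the arms was searched, so pairs at other spacings are not counted as paired.
Ift57, chr16:49699164-49699293, plus strand: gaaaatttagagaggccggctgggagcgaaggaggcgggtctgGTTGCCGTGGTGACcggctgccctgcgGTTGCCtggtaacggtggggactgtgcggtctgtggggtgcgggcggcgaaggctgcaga
Bbs7, chr3:36613390-36613519, minus strand: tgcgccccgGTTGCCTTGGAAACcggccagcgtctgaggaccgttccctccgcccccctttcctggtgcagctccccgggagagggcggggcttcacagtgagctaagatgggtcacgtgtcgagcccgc
Ift140, chr17:25015956-25016085, plus strand: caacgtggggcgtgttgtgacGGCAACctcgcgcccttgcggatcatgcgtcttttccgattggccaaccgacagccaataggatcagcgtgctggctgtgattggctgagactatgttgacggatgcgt
Bbs2, chr8:94098510-94098639, minus strand: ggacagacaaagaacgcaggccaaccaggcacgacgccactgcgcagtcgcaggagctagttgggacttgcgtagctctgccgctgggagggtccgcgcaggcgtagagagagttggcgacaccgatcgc
Ift57 held a paired match that began 87 bases before the start and a further match to the single arm 60 bases before it. That arm is followed by gtaac, which matches GNAAC, at a closer spacing than the one searched, so it was not marked as paired. Bbs7 held a paired match 121 bases before its start, Ift140 held a single arm 109 bases before its start, and Bbs2 held none in the stretch. GENCODE places the outermost start of Ift57 and of Bbs7 inside the printed stretch that of Bbs2 upstream of it, and that of Ift140 at its last base. In the full windows of 300 bases (250 before the start and 50 after it), which 32 of the 35 members had, 16 held the single arm, against 14.1% of all genes with a window. The paired X-box stood in 8 of the 32, against 2.49% of all genes. Among the 8 members with a window whose counts differed in the same direction in both palmitate comparisons (described below), 4 held the single arm. The paired X-box stood in 3 of the 8: Ift57, which rose, and Bbs1 and Bbs4, which fell. The stretches printed above therefore do not stand for all members that fell. Among the other 24 members 12 held the single arm and 5 the paired X-box. A match describes these letters only.

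At the level of RNA, the members were low to moderate, and 2 of them stood far above the rest. Levels are given as TPM, a share of transcripts scaled to the same total in every library, which corrects for transcript length and so allows genes to be compared. Ift20, a subunit of IFT-B that also works at the Golgi, averaged 124 TPM over the 12 libraries. Ift57, an IFT-B subunit of the outer part of the complex, averaged 108 TPM. The 33 others lay below 40 TPM, 18 of them between 10 and 40 TPM and 15 below 10 TPM. The median member averaged 13.2 TPM, and Kif17, a kinesin-2 that works as a pair of like chains, was the lowest at 1.55 TPM. In sum, the 35 members took 0.0979% to 0.111% of a library's counts.

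**Figure D1:**
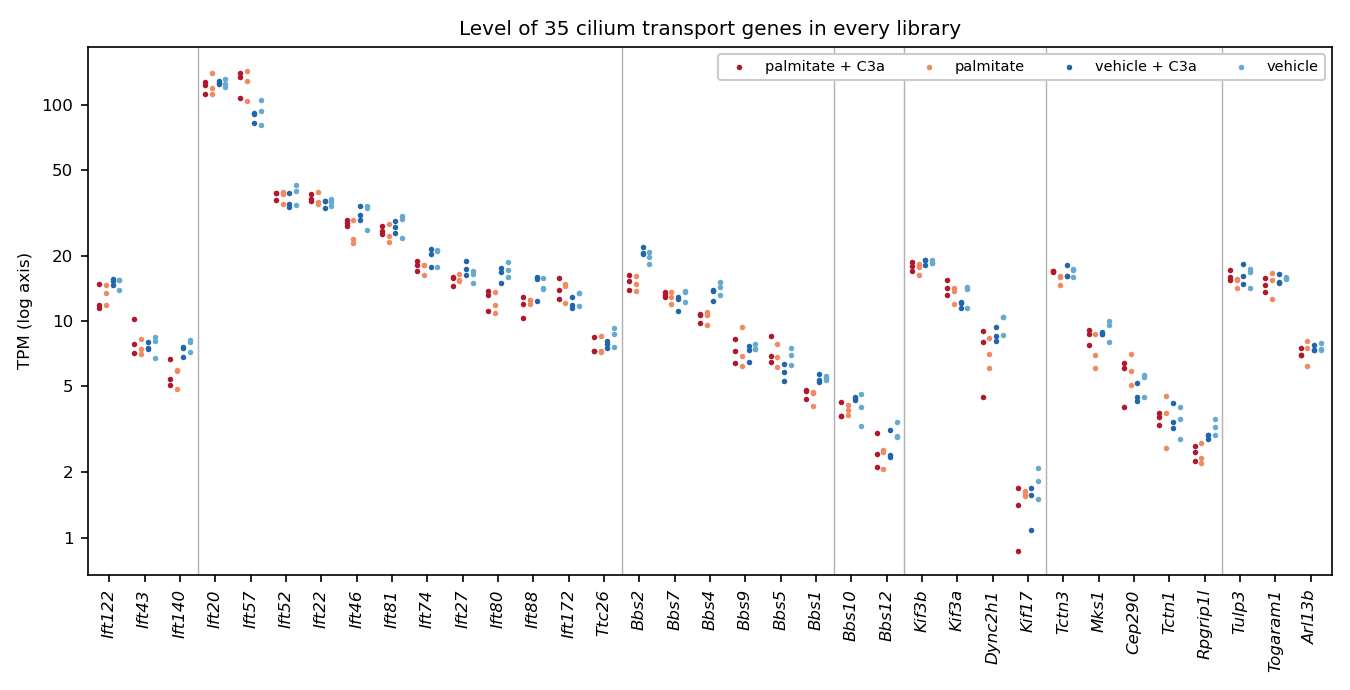
Level of each of the 35 genes in TPM (log axis), ordered by role (from left: IFT-A, IFT-B, BBSome, its chaperonins, motors, transition zone, membrane and tip) and by mean level; each point is 1 library and colours give the group. Ift20 (mean 124 TPM) and Ift57 (mean 108 TPM) stand above all others, and Kif17 (mean 1.55 TPM) is lowest.

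With palmitate a subset of these genes was lower and 1 was higher, both with and without C3a. In palmitate against vehicle, 10 of the 35 members fell and 1, Ift57, rose, while 24 did not pass the test. That is 31.4% called, where 26.5% of all 15043 genes tested were called (edgeR quasi-likelihood test, adjusted p below 0.05 with Benjamini-Hochberg adjustment over all genes). By direction, 28.6% of the members fell, against 11.9% of all genes, and 2.86% rose, against 14.6% of all genes. The median log2 fold change of the members was -0.09, beside -0.01 over all genes.

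In palmitate with C3a against vehicle with C3a, 12 of the 35 members fell, 1 rose (again Ift57) and 22 did not pass. The share called was 37.1%, where 28.2% of all genes were called. For falls alone it was 34.3%, against 13.8% of all genes, and for rises 2.86%, against 14.4% of all genes. The median log2 fold change was -0.12 for the members and 0.01 over all genes. These 2 comparisons share no library, but both come from the same fit, with a common estimate of the spread and of the batch. Same-numbered libraries also deviated together from their group means, so the 2 comparisons are not independent repeats. In both of them 9 members fell (Bbs1, Bbs2, Bbs4, Ift46, Ift80, Ift88, Ift122, Ift140 and Rpgrip1l) and 1 rose, and no member changed in opposite directions. Of all genes, 9.84% fell in both and 11.8% rose in both. Another 4 members were called in 1 of the comparisons, and 21 in neither. The largest fold change among the 9 was -0.48 on the log2 scale, a level 0.715 times that of vehicle with C3a (Bbs2), so the changes are of moderate size. In bulk RNA, fewer cells of a type and less RNA per cell cannot be told apart.

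**Figure D2:**
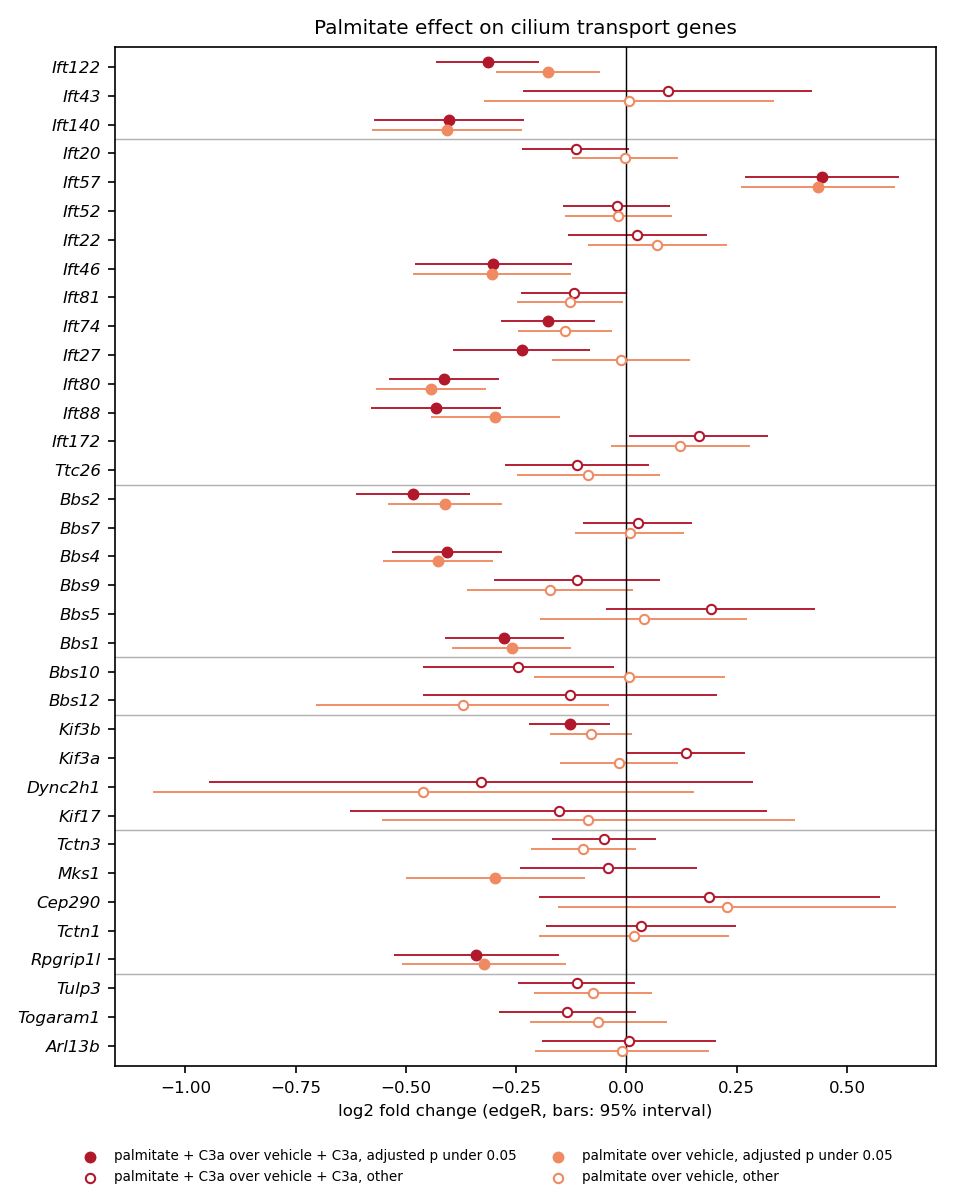
log2 fold change of each gene for palmitate + C3a over vehicle + C3a (dark red) and palmitate over vehicle (light red), with 95% intervals from edgeR; filled points passed the test and grey lines separate the roles. The 9 genes that fell in both comparisons lie between -0.48 and -0.18, and Ift57 alone lies at 0.43 and 0.44.

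Of the 6 BBSome subunits that the naming rule picked, 3 fell in both comparisons and the other 3 were called in neither. The remaining subunits, Ttc8 (-0.11 with C3a and -0.05 without) and Bbip1 (0.09 and 0.16), were not called either. Per-library levels are given from here on as CPM (counts per library scaled to the same total, with TMM factors), in the order of libraries 1, 2 and 3. Bbs2 (chr8:94067954-94098928), which forms the core of the complex with Bbs7 and Bbs9, had 29.0, 26.9 and 28.6 CPM with palmitate and C3a, 25.8, 28.7 and 27.4 CPM with palmitate, 41.0, 39.5 and 37.6 CPM with vehicle and C3a, and 38.3, 34.5 and 36.5 CPM with vehicle. With and without C3a, every palmitate library lay below every vehicle library, an order shown by 15.2% of all genes with C3a and by 15.1% without. Its log2 fold change was -0.48 ± 0.059 with C3a (SE; edgeR adjusted p = 0.000117) and -0.41 ± 0.059 without (adjusted p = 0.000409).

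Bbs4 (chr9:59321990-59353508), a subunit of repeated helices, had 17.5, 17.04 and 18.5 CPM with palmitate and C3a, 18.6, 18.4 and 17.4 CPM with palmitate, 22.5, 23.6 and 24.3 CPM with vehicle and C3a, and 23.9, 24.1 and 24.997 CPM with vehicle. The groups did not overlap, and the SD within a group was at most 0.927 CPM (n = 3). Bbs4 fell by 0.41 ± 0.057 on the log2 scale with C3a (SE; edgeR adjusted p = 0.000307) and by 0.43 ± 0.057 without (adjusted p = 0.000242). Bbs1 (chr19:4886878-4906628), the subunit that binds the membrane GTPase Arl6, had 17.6, 18.3 and 16.6 CPM with palmitate and C3a, 17.7, 17.8 and 16.4 CPM with palmitate, 23.1, 20.4 and 20.3 CPM with vehicle and C3a, and 21.4, 20.4 and 20.5 CPM with vehicle. Its groups did not overlap either. The change was smaller, at -0.28 ± 0.061 with C3a (SE; edgeR adjusted p = 0.00561) and -0.26 ± 0.061 without (adjusted p = 0.00838).

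Bbs7 and Bbs9, the partners of Bbs2 in the core, and Bbs5, which binds membrane lipids, were not called. For Bbs7 the interval of the log2 difference was narrow, -0.10 to 0.15 with C3a and -0.12 to 0.13 without. That interval does not reach the values of Bbs2. Bbs9 stood at -0.11 and -0.17, and Bbs5 at 0.19 and 0.04, with and without C3a. Bbs10 and Bbs12, chaperonin-like proteins that help the complex to assemble, were not called, and both were low, at 4.02 and 2.66 TPM on average. Bbs10 had 6.47, 6.90 and 7.92 CPM with palmitate and C3a, 6.79, 7.68 and 7.70 CPM with palmitate, 8.57, 8.23 and 8.50 CPM with vehicle and C3a, and 6.45, 7.34 and 8.28 CPM with vehicle. Its groups did not overlap with C3a and overlapped without, at log2 fold changes of -0.25 (edgeR adjusted p = 0.0874) and 0.01. Bbs12 stood at -0.13 with C3a and -0.37 without (adjusted p = 0.0944).

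Of the 3 IFT-A members, the 2 large scaffold subunits fell and Ift43, a small subunit, did not pass. Ift140 (chr17:25016085-25099495) had 21.9, 18.6 and 18.9 CPM with palmitate and C3a, 19.5, 22.2 and 17.9 CPM with palmitate, 27.6, 25.5 and 25.3 CPM with vehicle and C3a, and 27.4, 26.3 and 25.5 CPM with vehicle. The groups did not overlap. It fell by 0.40 ± 0.078 on the log2 scale with C3a (SE; edgeR adjusted p = 0.00241) and by 0.41 ± 0.077 without (adjusted p = 0.0024).

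Ift122 (chr6:115853470-115926699) was the most abundant IFT-A member, at 14.04 TPM on average. It had 38.6, 33.3 and 31.8 CPM with palmitate and C3a, 40.04, 35.2 and 33.5 CPM with palmitate, 46.3, 39.0 and 43.4 CPM with vehicle and C3a, and 45.8, 37.4 and 40.1 CPM with vehicle. With C3a the groups just missed each other, and without C3a they overlapped, although the palmitate library was the lower one in each same-numbered pair. The log2 fold change was -0.32 ± 0.054 with C3a (SE; edgeR adjusted p = 0.00114) and -0.18 ± 0.054 without (adjusted p = 0.0282). The call without C3a was lost on leaving out palmitate library 1 (adjusted p = 0.0699), palmitate library 3 (0.0607), vehicle library 1 (0.0784) or vehicle library 3 (0.0871), and both calls were lost with no batch term (0.0781 with C3a and 0.326 without) and with the most abundant transcript alone (0.1 and 0.685).

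IFT-B held the widest range: of its 12 members 3 fell and 1 rose in both comparisons, and 2 more fell with C3a alone. Ift80 (chr3:68892499-69004570), a subunit of the outer part of IFT-B, had 29.9, 32.1 and 29.4 CPM with palmitate and C3a, 28.9, 33.0 and 30.0 CPM with palmitate, 37.6, 42.3 and 41.7 CPM with vehicle and C3a, and 41.8, 41.5 and 41.8 CPM with vehicle. The vehicle libraries were nearly equal, and no palmitate library reached any of them. Ift80 fell by 0.41 ± 0.057 on the log2 scale with C3a (SE; edgeR adjusted p = 0.00026) and by 0.44 ± 0.057 without (adjusted p = 0.000183).

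Ift88 (chr14:57424062-57517936), also called polaris, belongs to the core of IFT-B, and mice with a damaged copy have short or missing cilia. It had 22.4, 21.4 and 24.0 CPM with palmitate and C3a, 23.8, 24.4 and 25.2 CPM with palmitate, 27.7, 31.9 and 31.8 CPM with vehicle and C3a, and 30.8, 28.3 and 31.1 CPM with vehicle. Neither pair of groups overlapped. The log2 fold change was -0.43 ± 0.067 with C3a (SE; edgeR adjusted p = 0.000616) and -0.30 ± 0.067 without (adjusted p = 0.00653). Ift46 (chr9:44767908-44793447), another core subunit, had 23.1, 21.2 and 21.7 CPM with palmitate and C3a, 24.3, 18.9 and 20.6 CPM with palmitate, 28.3, 24.3 and 28.7 CPM with vehicle and C3a, and 25.2, 26.3 and 26.6 CPM with vehicle. The groups lay close but did not overlap. Its change was -0.30 ± 0.082 in both comparisons (SE; edgeR adjusted p = 0.0164 with C3a and 0.0165 without). The call without C3a was lost on leaving out palmitate library 2 (adjusted p = 0.052) or vehicle library 3 (0.0567), and the call with C3a on leaving out library 3 of vehicle with C3a (0.072). Both were lost with no batch term (0.063 with C3a and 0.0724 without) and with the most abundant transcript alone (0.299 and 0.167).

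Ift57 (chr16:49699233-49765126), which binds the huntingtin-interacting protein Hip1 as well as IFT-B, was the 1 member that rose. It had 102, 153 and 142 CPM with palmitate and C3a, 101.4, 153 and 148 CPM with palmitate, 88.7, 99.99 and 100.2 CPM with vehicle and C3a, and 85.3, 111 and 98.8 CPM with vehicle. Both libraries 1 of the palmitate groups, which are of batch 1, were far below libraries 2 and 3, so that without C3a the groups overlapped, while within each batch every palmitate library was the higher. The log2 fold change was 0.44 ± 0.080 with C3a (SE; edgeR adjusted p = 0.00168), a level 1.36 times that of vehicle with C3a, and 0.43 ± 0.080 without (adjusted p = 0.00198), a level 1.35 times that of vehicle. In the same-numbered pair of batch 1 the log2 difference was 0.21 with C3a and 0.25 without, and in the pairs of batch 2 it was 0.61 and 0.51 with C3a and 0.47 and 0.58 without. With no batch term both calls were lost (adjusted p = 0.118 and 0.134), and in batch 2 alone both held.

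Ift20, the most abundant member, had 75.3, 64.0 and 70.8 CPM with palmitate and C3a, 82.7, 64.5 and 72.2 CPM with palmitate, 82.5, 71.4 and 73.9 CPM with vehicle and C3a, and 82.5, 68.1 and 69.4 CPM with vehicle. The groups overlapped, with log2 fold changes of -0.12 with C3a and -0.00 without, and neither was called. Leaving out library 3 of palmitate with C3a, Ift20 was called lower with C3a at -0.17 (edgeR adjusted p = 0.0472). Ift74 and Ift81, which together bind tubulin, differed little: Ift74 fell by 0.18 on the log2 scale with C3a (edgeR adjusted p = 0.0179) and stood at -0.14 without (0.0558), and Ift81 stood at -0.12 and -0.13 and was not called, except without C3a on leaving out palmitate library 2 (-0.18, adjusted p = 0.0473). The Ift74 call with C3a was lost on leaving out library 1 (adjusted p = 0.0539) or library 3 (0.0734) of palmitate with C3a, or library 3 of vehicle with C3a (0.0664), and also with no batch term (0.324), in batch 2 alone (0.113) and with the 2 groups alone (0.0638). Without C3a, Ift74 was called on leaving out library 1 (0.0469) or 2 (0.0376) of palmitate with C3a or library 2 (0.0454) or 3 (0.0425) of vehicle with C3a, and with genes of every class in the fit (0.0388).

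Ift27, a small GTPase that lets the BBSome leave the cilium, fell by 0.24 ± 0.071 on the log2 scale with C3a (SE; edgeR adjusted p = 0.0265) and stood at -0.01 ± 0.071 without (adjusted p = 0.927). It had 9.58, 10.95 and 11.01 CPM with palmitate and C3a, 11.2, 10.7 and 11.2 CPM with palmitate, 12.0, 13.0 and 12.2 CPM with vehicle and C3a, and 10.9, 11.1 and 11.3 CPM with vehicle. The vehicle with C3a libraries were the highest of the 12. The difference between the 2 palmitate effects was -0.23 ± 0.10 (SE) and did not pass the adjustment over all genes (edgeR adjusted p = 1.00, unadjusted p = 0.0456). The call with C3a was lost on leaving out library 1 of palmitate with C3a (adjusted p = 0.115), or library 1 (0.078) or 2 (0.0978) of vehicle with C3a, and DESeq2 gave an adjusted p of 0.0511. It was also lost with no batch term (0.0638), in batch 2 alone (0.173) and with the 2 groups alone (0.0802).

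The other IFT-B members were called in neither comparison. Ift52 of the core stood at -0.02 in both, Ift22, a GTPase-like subunit, at 0.02 and 0.07, Ttc26, a further core subunit, at -0.11 and -0.09, and Ift172, a large subunit of the outer part, at 0.16 and 0.12 on the log2 scale, with and without C3a. With the replicate number as a block, Ift172 was called higher with C3a at the same 0.16 (edgeR adjusted p = 0.0448). It was also called there on leaving out library 3 of palmitate with C3a (0.23, adjusted p = 0.0387).

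Of the 4 motor genes, 1 fell with C3a and none was called without it. Kif3b and Kif3a encode the motor chains of the main kinesin-2. Kif3b, the motor gene with the highest level, had 68.8, 69.5 and 65.3 CPM with palmitate and C3a, 69.4, 68.3 and 66.2 CPM with palmitate, 78.5, 73.5 and 70.9 CPM with vehicle and C3a, and 75.0, 69.7 and 70.9 CPM with vehicle. The palmitate libraries lay just below the vehicle libraries both with and without C3a. Kif3b fell by 0.13 ± 0.042 on the log2 scale with C3a (SE; edgeR adjusted p = 0.0397), and without C3a it stood at -0.08 ± 0.042 (adjusted p = 0.191). The call was lost on leaving out library 1 (adjusted p = 0.156) or 3 (0.128) of palmitate with C3a, palmitate library 1 (0.0585), library 1 (0.16) or 2 (0.116) of vehicle with C3a, or vehicle library 2 (0.0584) or 3 (0.0611). It was also lost with no filter (0.0555), with no batch term (0.148), in batch 2 alone (0.297), with the 2 groups alone (0.111) and with the most abundant transcript alone (0.0767). Kif3a stood at 0.13 and -0.02, and Kif17 at -0.15 and -0.09, neither of them called.

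Dync2h1, the heavy chain that powers the return trip, had the largest standard error of all members. It had 72.5, 65.4 and 33.5 CPM with palmitate and C3a, 57.3, 68.1 and 48.0 CPM with palmitate, 69.7, 78.1 and 65.3 CPM with vehicle and C3a, and 72.8, 84.5 and 80.5 CPM with vehicle. Library 3 was the lowest of its group in both palmitate groups. The log2 fold change was -0.33 ± 0.27 with C3a (SE; edgeR adjusted p = 0.416) and -0.46 ± 0.27 without (adjusted p = 0.251), so it was not called. Leaving out library 3 of palmitate with C3a brought the comparison without C3a past the threshold, at the same log2 fold change of -0.46 (adjusted p = 0.0255).

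Its most abundant transcript measures 13103 bases. Over the 1106 genes whose most abundant transcript is at least 7000 bases long, the median deviation from the group mean was -0.21 on the log2 scale in library 3 of palmitate with C3a and -0.16 in library 3 of palmitate, and lay between -0.08 and 0.13 in the other 10 libraries. The median log2 fold change of these 1106 genes was -0.07 with C3a and -0.12 without, beside 0.01 and -0.01 over all genes. The part of this in the values of long members was not tested. Cep290, with a transcript of 8006 bases, was likewise lowest in library 3 of palmitate with C3a, at 21.99 CPM against 33.4 and 33.5 CPM in libraries 1 and 2. Cep290 was not called (log2 fold change 0.19 with C3a and 0.23 without), and on leaving out that library it was called higher with C3a, at 0.39 (edgeR adjusted p = 0.0274). Rpgrip1l, at 7009 bases, was the third member of that length.

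**Figure D3:**
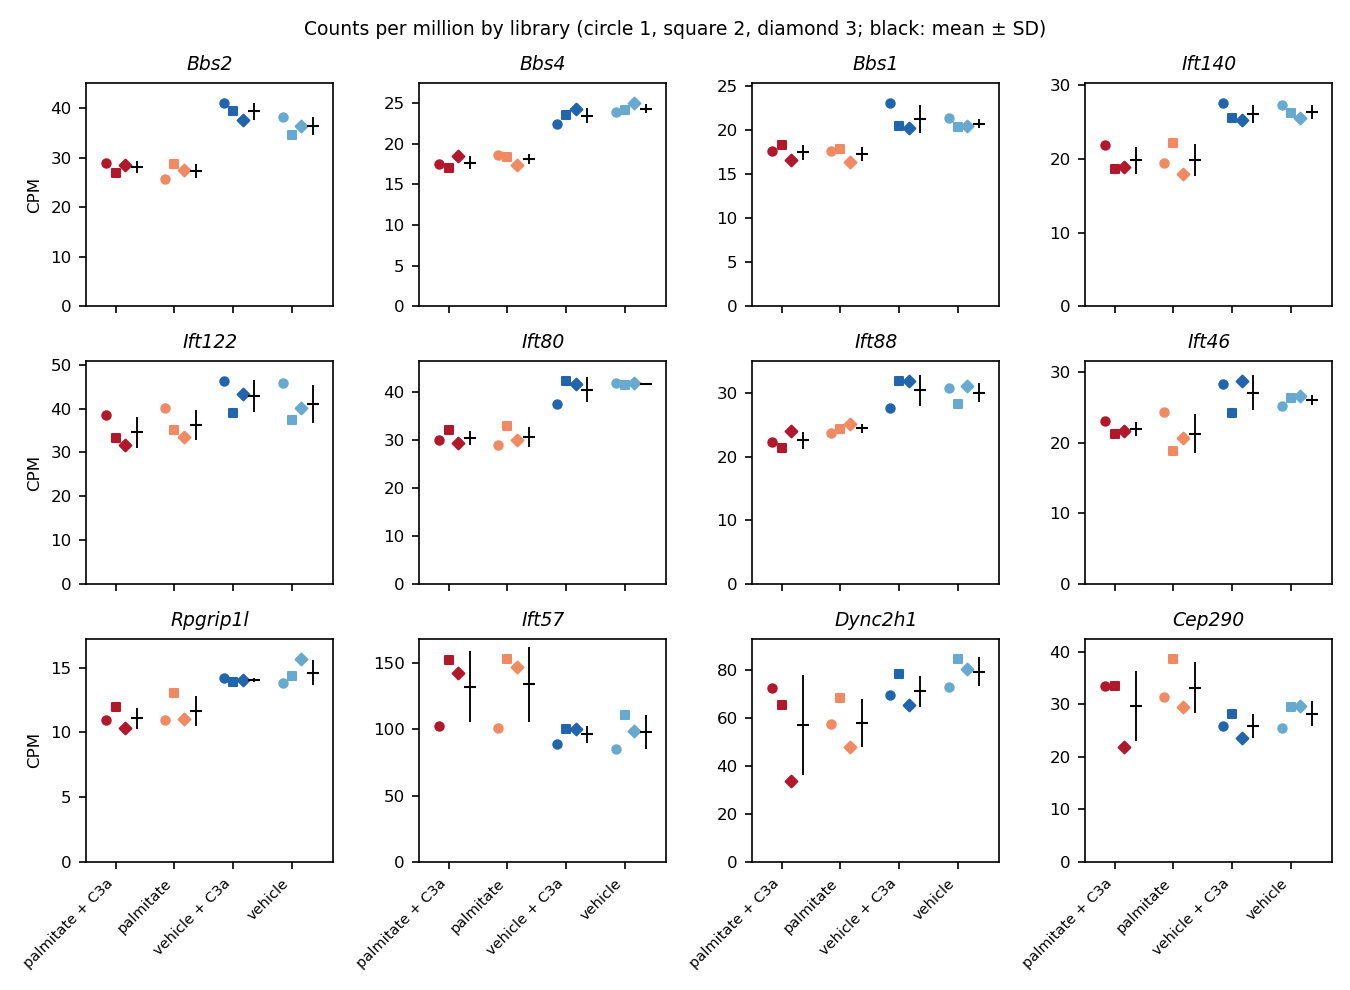
CPM in each library for the 10 genes called in the same direction in both palmitate comparisons and for the long genes Dync2h1 and Cep290; circle, square and diamond mark libraries 1, 2 and 3, and black bars give mean ± SD (n = 3). In 8 of the 9 genes that fell, every palmitate library lies below every vehicle library with and without C3a (Ift122 overlaps without C3a). Of all genes, 15.2% show this order with C3a and 15.1% without, and the 9 were chosen by calls on these same libraries, so it adds no support. Library 1 of Ift57 is below libraries 2 and 3 in both palmitate groups.

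The 9 genes that fell were also read within each batch. Batch 1 holds 1 library of each group, so it allows no test, and the 9 were chosen partly on it: its log2 differences ran from -0.50 (Bbs2) to -0.26 (Ift122) with C3a and from -0.57 (Bbs2) to -0.05 (Ift46) without. In batch 2 alone, Bbs2, Bbs4, Ift80 and Ift140 passed in both comparisons (edgeR, adjusted p below 0.05). Bbs1 did not pass there in either (adjusted p = 0.0986 with C3a and 0.07 without), nor did Rpgrip1l (0.0897 and 0.0995). Ift46 was missed with C3a (0.057), and Ift88 (0.064) and Ift122 (0.173) were missed without it.

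Of the 5 transition zone members, Rpgrip1l (chr8:91217030-91313262), which anchors the zone's protein complexes, fell in both comparisons. It had 10.97, 12.0 and 10.4 CPM with palmitate and C3a, 10.98, 13.0 and 11.1 CPM with palmitate, 14.2, 13.9 and 14.03 CPM with vehicle and C3a, and 13.8, 14.4 and 15.7 CPM with vehicle. The groups did not overlap, though palmitate library 2 came near. Its log2 fold change was -0.34 ± 0.085 with C3a (SE; edgeR adjusted p = 0.011) and -0.32 ± 0.085 without (adjusted p = 0.0147). The call without C3a was lost on leaving out palmitate library 1 (adjusted p = 0.061) or 3 (0.054), or vehicle library 3 (0.0652), and with the most abundant transcript alone (0.294).

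Mks1, a subunit of the MKS complex of the zone, fell without C3a by 0.30 ± 0.093 on the log2 scale (SE; edgeR adjusted p = 0.0327), and stood at -0.04 ± 0.092 with C3a (adjusted p = 0.789). The test of the difference between these effects did not pass (0.26 on the log2 scale, edgeR adjusted p = 1.00). Mks1 had 12.1, 11.7 and 12.3 CPM with palmitate and C3a, 12.0, 10.4 and 9.42 CPM with palmitate, 13.4, 11.6 and 12.3 CPM with vehicle and C3a, and 12.0, 13.4 and 13.5 CPM with vehicle. Its groups overlapped in both comparisons, and the call was lost on leaving out palmitate library 2 (adjusted p = 0.0603) or 3 (0.115), or vehicle library 2 (0.101) or 3 (0.112), and also with no batch term (0.0878), with the 2 groups alone (0.0687) and with the most abundant transcript alone (0.148). Tctn3, the highest of the zone's members, had 28.7, 29.6 and 30.9 CPM with palmitate and C3a, 27.1, 29.3 and 28.2 CPM with palmitate, 31.1, 32.3 and 29.1 CPM with vehicle and C3a, and 30.5, 29.9 and 30.1 CPM with vehicle, and was not called. Tctn1, its relative, stood at 0.03 and 0.02.

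The 3 members of the membrane and the tip were not called. Tulp3, which brings receptors to IFT-A, had 30.0, 35.5 and 36.8 CPM with palmitate and C3a, 32.3, 34.7 and 32.9 CPM with palmitate, 33.9, 40.6 and 36.1 CPM with vehicle and C3a, and 31.4, 35.98 and 37.8 CPM with vehicle. Arl13b, the GTPase that marks the ciliary membrane, had log2 fold changes of 0.01 and -0.01, with intervals of -0.19 to 0.20 with C3a and -0.21 to 0.19 without. Togaram1, which shapes the microtubules of the cilium, stood at -0.13 and -0.06.

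No effect of C3a on any member was detectable. In palmitate with C3a against palmitate, 0 of the 35 members were called and 0 had an unadjusted p below 0.05 (edgeR). Over all genes 0% were called, with 425 of 15043 at an unadjusted p below 0.05, and DESeq2 called 1 gene, which is no member. In vehicle with C3a against vehicle, 0 members were called and 1 (Ift27, log2 difference 0.16) had an unadjusted p below 0.05. Over all genes 0% were called by edgeR, 340 had an unadjusted p below 0.05, and DESeq2 called 1 gene outside the members. For the interaction of palmitate and C3a, 0 members and 0% of all genes were called, 1 member (Ift27) and 241 genes had an unadjusted p below 0.05, and DESeq2 called 0.

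The 3 libraries of palmitate with C3a overlapped those of palmitate in all 35 members, where 4.1% of all genes did not overlap (2.2% higher, 1.9% lower). Against vehicle, vehicle with C3a did not overlap in 2 members, Ift27 (higher) and Bbs5 (lower), where 5.42% of all genes did not (2.73% higher, 2.69% lower).

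The intervals bound what C3a could have done to the 10 members that changed in both palmitate comparisons. In palmitate-treated islets their 95% intervals for the log2 effect of C3a lay between -0.26 and 0.23, and in vehicle-treated islets between -0.24 and 0.24. Of all 35 members, 32 had an interval within 0.5 on the log2 scale of no change in palmitate-treated islets, and 31 in vehicle-treated islets. Dync2h1, Kif17 and Cep290 had wider intervals in both, and Bbs12 in vehicle-treated islets.

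Most members draw their counts from 1 transcript, and 24 of the 35 took over 85% of their counts from their most abundant one. Bbs4 has 1 transcript in the table, and Bbs2 took 97.4% of its counts from transcript Bbs2-201. Ift57 divided its counts among 3 coding transcripts, its main one taking 42.0% to 43.7% in palmitate with C3a, 41.4% to 45.2% in palmitate, 37.5% to 43.7% in vehicle with C3a and 40.2% to 42.6% in vehicle. The second transcript, Ift57-201, went with the sequencing batch, at no more than 23.1% in the libraries of batch 1 and at least 29.7% in those of batch 2. Ift80 was uneven: its main transcript took 41.1%, 74.6% and 55.7% of the gene's counts in palmitate with C3a, 3.33%, 70.8% and 36.2% in palmitate, 19.6%, 54.7% and 39.4% in vehicle with C3a, and 70.1%, 62.6% and 46.5% in vehicle. The libraries of 1 group differed as widely as the groups did. The estimate of each Ift80 transcript is therefore not used, and its fall is a statement about the sum over the gene, since the main transcript alone gave -1.43 without C3a (edgeR adjusted p = 0.195) and 0.24 with C3a (0.848).

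**Figure D4:**
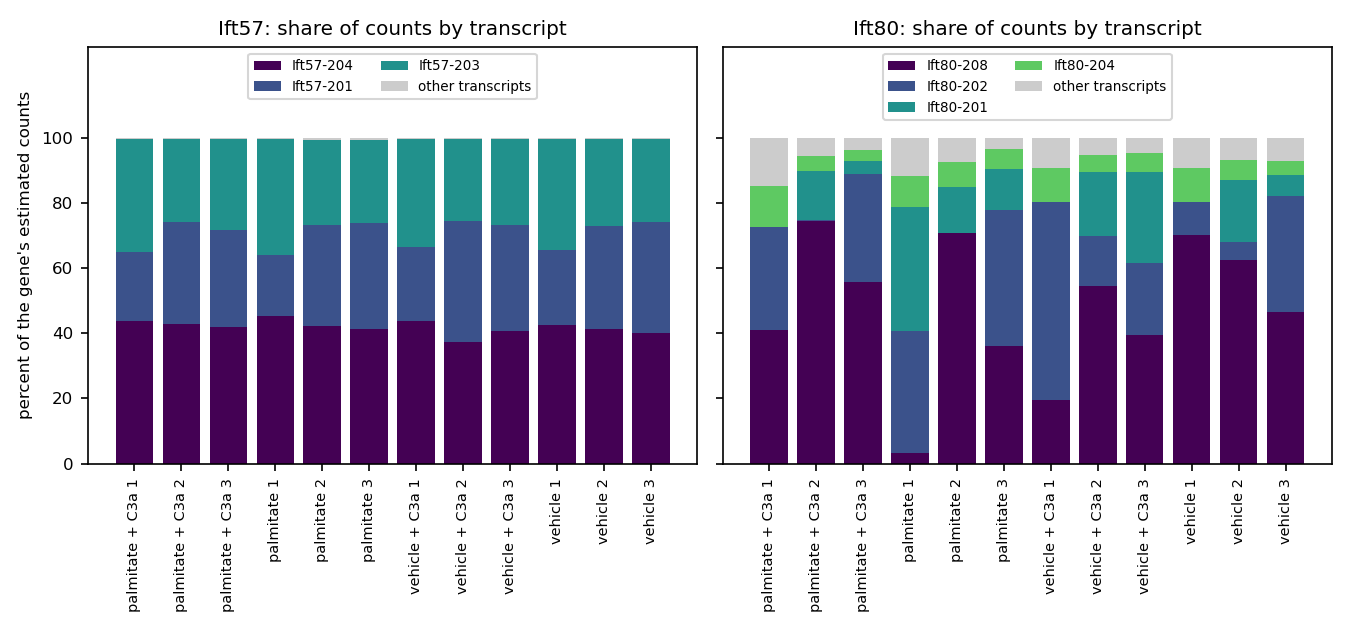
Share of a gene's estimated counts by transcript in each library, for Ift57 (left) and Ift80 (right), as percent of the gene's counts. The main Ift57 transcript keeps between 37.5% and 45.2% in all 12 libraries, while the main Ift80 transcript runs from 3.33% to 74.6%.

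Other genes of the same machinery, taken from the lists, passed the test in both directions. Of 3 further IFT-A subunits, Wdr35 fell without C3a (-0.17, edgeR adjusted p = 0.0133) and not with it (-0.10, 0.116), while Wdr19 (-0.30 and -0.22) and Ttc21b (0.12 and 0.03) were not called, without and with C3a. Of 7 further IFT-B genes, Ttc30b, a core subunit, fell in both, by 0.38 with C3a (adjusted p = 0.00162) and by 0.30 without (0.00642), and the other 6 were not called. Of 5 genes around the BBSome, Lztfl1, which restrains its entry, fell with C3a (-0.21, edgeR adjusted p = 0.0244). Of 9 further motor subunits, Kif3c fell without C3a (-0.20, adjusted p = 0.0301) and Dync2li1, a light chain of dynein-2, rose with C3a (0.23, adjusted p = 0.0332). Without C3a the share called was 33.3% for the IFT-A list, 14.3% for IFT-B, 0% around the BBSome and 11.1% for motors, beside 26.5% of all genes. With C3a these shares were 0%, 14.3%, 20% and 11.1%, beside 28.2% of all genes.

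At the base of the cilium, 17 further transition zone genes gave 1 rise and 2 falls in both comparisons, 17.6% called, beside 28.2% of all genes with C3a and 26.5% without. Cep41, needed for glutamylation of tubulin, rose by 0.62 on the log2 scale with C3a (edgeR adjusted p = 0.000345) and by 0.55 without (0.000833). Tmem231 fell by 0.21 and 0.25 (adjusted p = 0.00995 and 0.00429), and Rpgr by 0.19 and 0.20 (0.0294 and 0.0267), with and without C3a. Of 18 basal body genes, 2 rose in both comparisons, while 2 fell with C3a and 3 without (22.2% and 27.8% called). Cep83, which docks the centriole to the membrane, rose by 0.34 with C3a (adjusted p = 0.000909) and by 0.42 without (0.000248), and the vesicle GTPase Rab8a rose by 0.21 and 0.23 (0.0111 and 0.00683). Cep97, which caps the centriole, fell without C3a (-0.35, adjusted p = 0.011) and stood at -0.20 with it (0.106). Of 15 tested genes of ciliary and hedgehog signalling, 1 rose in both comparisons, while 2 fell with C3a and 1 without (20% and 13.3% called). Gpr161, a receptor that holds hedgehog signalling down, rose by 0.48 with C3a (adjusted p = 0.00215) and by 0.55 without (0.000956), while Sstr3, the somatostatin receptor that gathers in cilia, fell by 0.18 and 0.17 (0.0193 and 0.0223). Ptch1, the hedgehog receptor, fell with C3a (-0.38, adjusted p = 0.0163) and stood at -0.26 without (0.0836). Of 10 carriers of membrane cargo, 2 fell with C3a and 1 without (20% and 10% called). Inpp5e, the lipid phosphatase of the ciliary membrane, fell by 0.21 and 0.20 (edgeR adjusted p = 0.0299 and 0.0343), and Unc119b, a carrier of lipid-tailed proteins, fell with C3a by 0.15 (0.0372). Of 19 tested genes of motile cilia, 2 rose and 2 fell with C3a, and 1 rose and 2 fell without (21.1% and 15.8% called). Among them the dynein heavy chain Dnah9 fell by 0.77 with C3a (adjusted p = 0.01) and by 0.62 without (0.029), and its relative Dnah11 rose by 0.47 and 0.55 (0.0229 and 0.0118).

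Of 8 tested genes in a list of RFX and other cilium transcription factors, 3 fell with C3a and 2 without, and none rose. The share called was 37.5% with C3a, beside 28.2% of all genes, and 25% without, near the 26.5% of all genes. The median log2 fold change was -0.21 with C3a, beside 0.01 over all genes, and -0.24 without, beside -0.01. Rfx6, which is needed to form islet endocrine cells, had 88.7, 64.7 and 70.9 CPM with palmitate and C3a, 83.7, 67.4 and 73.5 CPM with palmitate, 103, 94.8 and 93.2 CPM with vehicle and C3a, and 98.1, 90.4 and 92.8 CPM with vehicle. No palmitate library reached a vehicle library, and Rfx6 fell by 0.39 with C3a (edgeR adjusted p = 0.000915) and by 0.33 without (0.00266). Rfx2 fell by 0.30 and 0.23 (adjusted p = 0.00928 and 0.037), and Rfx5 fell with C3a by 0.22 (0.034) and stood at -0.20 without (0.0509). Foxj1, the switch for motile cilia, lay between 0.377 and 1.35 CPM in all 12 libraries.

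The islet label was checked against hormone genes: Ins1, Ins2 and Gcg took 15.3% to 20.2% of the counts of a library. Some cell type markers differed with palmitate, and their part in the members' values was not tested. Of all genes, 28.2% were called with C3a (13.8% lower) and 26.5% without (11.9% lower). The share called was 66.7% with C3a and 83.3% without for endothelial markers, and 44.4% and 55.6% for beta cell markers. In the other lists it was 0% to 40% with C3a and 0% to 50% without. The lists hold only 2 to 9 genes, so the counts below are not read as changes of a cell type. The summed level of 6 endothelial markers was 101.5 to 167 CPM with palmitate and C3a and 93.9 to 164 CPM with palmitate, against 153 to 211 CPM with vehicle and C3a and 168 to 226 CPM with vehicle. Of these 6, 4 fell with C3a and 5 without. Of the 6 duct markers, Spp1 alone rose in each comparison, and 1 other fell without C3a. The sum of the 6 was 286 to 349 CPM with palmitate and C3a and 247 to 325 CPM with palmitate, against 131 to 171 CPM with vehicle and C3a and 154 to 224 CPM with vehicle. Most of this sum was Spp1, at 215 to 275 CPM with palmitate and C3a and 181 to 256 CPM with palmitate. Spp1 had 69.9 to 107.5 CPM with vehicle and C3a and 102 to 142 CPM with vehicle. The 7 markers of fibroblasts and pericytes summed, in libraries 1, 2 and 3, to 189, 226 and 1451 CPM with palmitate and C3a. With palmitate they summed to 775, 203 and 232 CPM. The sum was 415 to 486 CPM with vehicle and C3a and 341 to 689 CPM with vehicle. Of these 7 markers, 1 fell with C3a and 2 without. Of 9 beta cell markers 4 fell in each comparison and 1 rose without C3a. Of 5 alpha cell markers 2 fell with C3a and 1 without, and of 4 delta cell markers 1 fell with C3a and none was called without. Of 4 Schwann cell markers 1 fell in each comparison, and their sum was 16.4 to 20.3 CPM with palmitate and C3a and 15.3 to 21.1 CPM with palmitate, against 21.1 to 26.7 CPM with vehicle and C3a and 19.3 to 26.5 CPM with vehicle. Of 6 macrophage markers 1 rose and 1 fell in each comparison. Of 2 PP cell markers 1 rose without C3a, and of 7 acinar markers none was called. Of 5 markers of multiciliated cells, Tekt1 was too low to test, with at most 4 counts in a library and 0 in 3 libraries. Of the 4 tested, Dnah9 alone was called, lower in each comparison. The 5 together summed to 26.6 to 26.9 CPM with palmitate and C3a and 23.5 to 30.2 CPM with palmitate. With vehicle and C3a the sum was 31.4 to 35.9 CPM, and with vehicle 28.9 to 34.9 CPM.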

How the data were processed

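The authors deposited estimated counts per transcript, given as whole numbers and not normalized. The submitters' processing notes list kallisto, DESeq2 and GRCm38 but give no role or version for any of them. Libraries were made with a strand-marking messenger RNA kit, per the labels' protocols. No source used here gives the transcript release or the strand setting, so overlapping genes are uncertain. Of 71524 transcripts, 69942 were matched by identifier to GENCODE M21, whose coordinates (GRCm38) are printed, and summed to 22141 genes. Tctn2, which GENCODE M21 does not class as protein-coding, was not analysed here.

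Counts of the 18299 protein-coding genes were filtered with filterByExpr (15043 left), scaled by TMM (factors 0.9702 to 1.04) and tested with edgeR 4.0.16 (R 4.3.3; robust quasi-likelihood, group and sequencing batch, all 12 libraries, 7 residual degrees of freedom), with Benjamini-Hochberg adjustment over all genes and a threshold of 0.05. The standard error is the log2 fold change divided by the root of F. TPM was computed from counts and transcript lengths. Promoter sequences are from RefSeq (GRCm38.p6). The test was checked on simulated counts with a spread of 10%, in palmitate against vehicle. It recovered 32% of 100 genes given a log2 change of 0.4 and 94% of 100 given a change of 1. It also called 5 genes left unchanged. Far fewer genes were changed there than were called in the data, so these shares do not carry over directly.

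Same-numbered libraries deviated together from their group means (18 pairs, lowest correlation 0.358, mean 0.556), which includes the batch, since library 1 of every group is of batch 1. Within batch 2 the mean over 12 pairs was 0.125. There the deviations of libraries 2 and 3 of a group mirror each other, so these pairs repeat values. The lowest of these 12 was 0.0985. The main test held a batch term and no pairing by number. With the replicate number as a block, the common spread between libraries was 8.89%, against 10.5% in the main fit. The block fit called 4586 genes in palmitate against vehicle, where the main fit called 3993. With C3a it called 4766, where the main fit called 4238. The numbers come from the labels. Column names of libraries 2 and 3 each hold a date, shared by every group, and what it marks is not stated. No pair of libraries was a duplicate (lowest chi-squared per degree of freedom 7.21 over 66 pairs). The members and all gene lists were chosen with earlier results of these data known. Every member is named; per-library values are given for those called in both palmitate comparisons and the highest member of each role that is not otherwise shown, and, chosen after their values were seen, for Ift27, Mks1, Dync2h1, part of Cep290 and Rfx6. From each other list, up to 3 genes with the smallest p in palmitate against vehicle were eligible to be named. Foxj1, the hormone genes and the markers named in the last paragraph were chosen after their values were seen. The result of 1 marker gene is not reported here. Alternatives were DESeq2 1.42.0, its size factors, no filter, the replicate number as a block, no batch term, batch 2 alone, the 2 groups alone, all gene classes, the most abundant transcript, and leaving out each library.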

Additional observations from a re-analysis of the deposited data

How the results depend on the processing

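The count of members called was 11 in palmitate against vehicle and 13 with C3a. It was 7 and 7 with no batch term, 7 and 7 in batch 2 alone, and 6 without C3a when each gene was read from its most abundant transcript. Leaving out 1 library at a time gave 7 to 12 calls without C3a, lowest without vehicle library 3, and 10 to 14 with C3a. With the replicate number as a block, which allows for a pairing of the libraries by number, the counts were 11 and 14. The C3a comparisons and the interaction gave 0 members in every alternative run. Bbs2, Bbs4 and Ift140 kept both calls in all 21 alternative fits. Over 24 single calls and 21 fits (504 in all), 442 kept the call, 61 lost it in the same direction, and 1 changed direction: Ift80 with C3a, read from its most abundant transcript, at 0.24. The causes were not tested. With no batch term all 7 calls in each comparison were falls. The widest intervals in the palmitate comparisons were those of Dync2h1, Kif17 and Cep290; Kif17 also had the fewest counts of all members.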
